A study of Mus musculus with 29 samples.

Results

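Mouse embryonic stem cells (ESCs) kept in 2i/L, a medium with LIF and inhibitors of Mek1/2 and Gsk3, lose DNA methylation over many passages. Described here are 2143 short stretches of the genome that were still methylated at 50% or more after 6 passages in 2i/L and had fallen under 40% after 16. They are called late-loss bins below. A bin is a 1 kb window on an autosome with at least 3 CpGs that each had 5 or more reads in all 9 libraries of 3 groups (S/L p20, 2i/L p10 and 2i/L p20), and its level is the share of methylated reads summed over those CpGs. The members were selected on the measured levels themselves. The S/L p20 mean had to reach 70%, the 2i/L p10 mean 50%, and the 2i/L p20 mean had to lie under 40%. They made up 3.43% of the 62466 bins that could be read, and 10.4% of the 20678 bins at or above 70% in S/L p20. Of those 20678 bins, 15305 had already gone under 50% at 2i/L p10 (lost early) and 3230 met 50% at p10 and held 40% or more at p20 (retained).

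CpG methylation was read by reduced representation bisulfite sequencing (RRBS), which samples CpGs near the cut sites of a restriction enzyme, in 29 libraries of 15 groups. Male ESCs of lines named J-34, J-35 and J-37 were moved at passage 4 into serum with LIF (S/L) or into 2i/L. Collection followed 6 passages later (p10) or 16 passages later (p20), with 1 library per line and group. The p23 and p30 cells had spent 16 passages in 2i/L and then 3 or 10 passages back in S/L, with 3 and 2 libraries. Lines J-34 and J-35 were also grown in a2i/L and PKCi/L, whose composition the labels do not give, with 2 libraries each at p20 and 1 each at p10 (a2i/L in J-34, PKCi/L in J-35). J-34 cells treated for 6 passages with PD or CHIR, usual short names for a Mek1/2 inhibitor and a Gsk3 inhibitor, gave 1 library each. MEK DKO is 1 library of induced pluripotent stem cells made from Mek1fl/fl;Mek2-/- fibroblasts with lentiviral M2rtTA and a doxycycline-inducible cassette of Oct4, Klf4, Sox2 and c-Myc. A clone was picked, a Cre plasmid deleted Mek1, and the cells were kept in S/L on irradiated fibroblast feeders, without a matched control clone among the libraries. Cultured neonatal keratinocytes, skin cells of the epidermis, came as 2 libraries labelled 2i/L and male and 1 labelled wild-type and female; the labels do not say how the 2i/L keratinocytes derive from 2i/L culture. The p30 library titled J-35 carries J-34 in its other labels, and it is called J-35 here after its title.

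Methylation of CpGs is copied onto the new DNA strand after each replication by the maintenance enzyme Dnmt1 with its partner Uhrf1, and is set anew by the Dnmt3 enzymes. Inhibition of Mek1/2 in mouse ESCs lowers the activity of this machinery, and the genome then loses methylation gradually as cells divide. Most of the genome can be methylated anew once the inhibitor is removed, whereas imprinted regions, whose marks are set in the germ line, do not regain them in culture.

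Total reads over CpGs ran from 8359802 to 22433006 per library, and a late-loss bin had a median of 48 reads in a library. Reads were summed over CpGs, so a read that spans several CpGs of a bin was counted at each of them. Taken as independent, 48 reads at a level of 50% give a binomial standard error of 7.22 points for 1 library. For a mean of 3 it is 4.17 points. The true errors are larger where reads are shared between CpGs, so levels of single bins are coarse. A level averages over cells and over both alleles, and fewer methylated cells cannot be told apart from less methylation per cell. The libraries also fell into 3 sets by which CpGs they covered. The p10 groups, PD, CHIR and MEK DKO shared 76.7 to 86.3% of their covered CpGs pairwise. The p23 group and both p20 groups of S/L and 2i/L shared 81.7 to 85%, the a2i/L p20, PKCi/L p20 and p30 libraries 76.8 to 83.1%, and pairs from different sets 62.2 to 79.7%.

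In the 9 libraries that chose them, the late-loss bins went from mostly methylated to mostly unmethylated. Averaged over the bins, the level was 86.8, 86.0 and 87.1% in S/L p20 of J-34, J-35 and J-37. It was 55.6, 55.7 and 56.4% in 2i/L p10 and 47.2, 32.6 and 22.2% in 2i/L p20. These are the selected values and are a description. The 3 lines were alike at p10 and far apart at p20, where J-34 was highest and J-37 lowest. The group mean fell by a median of 20.6 points per bin from p10 to p20, with a range of 10.2 to 52.3 points. The fall was under 20 points in 972 bins and 40 points or more in 42.

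**Figure D1:**
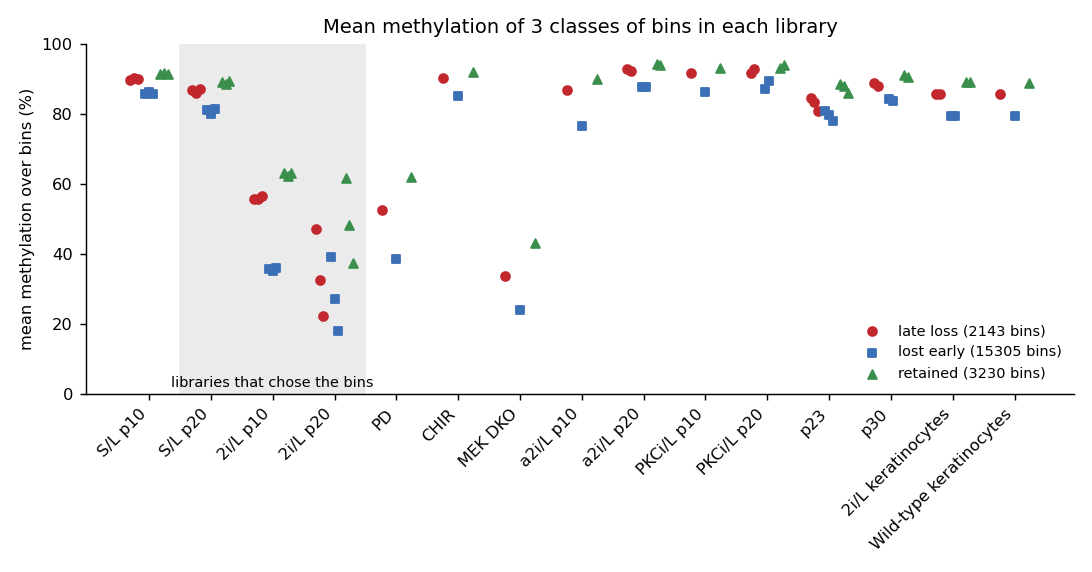
Mean methylation in percent (y axis) of the late-loss, lost-early and retained bins in each of the 29 libraries (1 point per library, x axis by group, the shaded groups chose the bins). Late-loss bins lie between the other classes in PD (52.6%) and MEK DKO (33.5%), and return to 81 to 85% in the 3 p23 libraries.

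The late loss was uneven between the lines. From 2i/L p10 to p20 the late-loss bins fell by a mean of 8.44 points in J-34, 23.1 points in J-35 and 34.2 points in J-37. Taken line by line, 295 members (13.8%) met both 2i/L limits in J-34, 1314 (61.3%) in J-35 and 1671 (78%) in J-37. Of the retained bins, 24 (0.743%), 589 (18.2%) and 1855 (57.4%) met them in these lines. The mean of these same 2i/L p20 libraries separates the 2 classes, so lower shares in retained bins follow from the rule. The retained bins fell by a mean of 1.23, 14 and 25.8 points, so in J-37 most of them also lost methylation late. Both limits were met in all 3 lines by 94 members, in 2 lines by 1053, in 1 line by 892, and in no single line by 104, whose means passed although no line did. J-37 was the lowest of the 3 lines at p20 in 83.7% of the late-loss bins, close to the 82.4% of the lost-early and 79.5% of the retained bins. In J-34 the lost-early bins stood at 35.6% at p10 and 39.1% at p20. The difference between lines was therefore not particular to the late-loss bins. Without the J-34 library of 2i/L p20 the same limits picked 3617 bins, and without the J-37 library 1003, of which 984 were members.

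**Figure D2:**
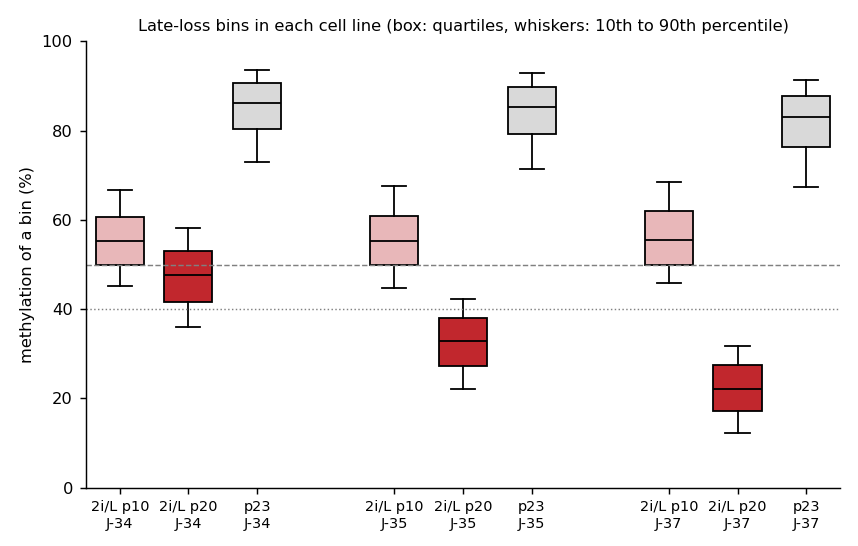
Methylation of the late-loss bins (y axis, percent) in 2i/L p10, 2i/L p20 and p23 of each line; boxes are quartiles, whiskers the 10th and 90th percentiles, and the dashed and dotted lines the limits of 50 and 40%. Medians at 2i/L p20 step down from 47.6% in J-34 to 32.8% in J-35 and 22.2% in J-37, while the p23 medians are 86.3, 85.3 and 83.0%.

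Many members lay near a limit. The mean of 2i/L p10 was within 5 points of 50% in 1170 and that of 2i/L p20 within 5 points of 40% in 1095, while 44 were within 5 points of the S/L p20 limit. Just inside the p10 limit, chr6:38936328-38936440 (3 CpGs; positions are mm9, first to last CpG) read 50% in each 2i/L p10 library and 30, 29.5 and 18.2% at 2i/L p20 in J-34, J-35 and J-37. Just outside it, chr5:121142867-121142997 read 43.4, 59.0 and 47.6% at p10 and 59.6, 25.8 and 28.6% at p20. Just inside the p20 limit, chr4:155273064-155273668 read 61.6, 33.3 and 25% at p20. Just outside that limit, chr14:92431147-92431157 read 66.7, 30 and 23.3%. At the S/L p20 limit, chr14:118304652-118304747 inside it read 70.8, 72 and 68.1%, and chr8:82319197-82319255 outside it 70.2, 63.2 and 75.9%. The group means of bins on either side of a limit differed by less than the counting error, and J-34 was the highest line at 2i/L p20 in the first 4 of these bins.

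The largest falls among the 1239 members with at least 30 reads in each of the 9 libraries had 3 to 5 CpGs each. The stretch chr6:89721932-89721957 (3 CpGs in 26 bp) had S/L p20 levels of 92.9, 94.9 and 86.1% (J-34, J-35 and J-37). In 2i/L it read 75.4, 76.9 and 68.7% at p10 and 50.7, 19.05 and 11.7% at p20. Its 3 CpGs read 77.4, 85.2 and 56.1% over the pooled 2i/L p10 reads and 31.8, 33.3 and 21.2% at p20. They had 66 reads each at p20, probably the same ones, so they are not separate measurements of the fall. At p23 it stood at 71.2, 79.7 and 53.6% and at p30 at 87.5 and 89.4% (J-35 and J-37). The second, chr6:121909029-121909144 (4 CpGs), went from 64.7, 61.7 and 69.8% at 2i/L p10 to 36.1, 22.9 and 4.17% at p20, and stood at 68.6, 70 and 67.2% at p23. Both had the J-34, J-35, J-37 order of the whole class at p20.

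Late-loss bins had few CpGs and were scattered. They held a median of 3 measured CpGs over 112 bp, and 57.7% of them had exactly 3, against 52.2% of the lost-early bins, 54.2% of the retained bins and 33.0% of all bins. Of the members, 17 (0.793%) had 10 or more CpGs, near the 0.98% of lost-early and 0.65% of retained bins, compared with 24.3% of all bins. Members were found on all 19 autosomes, at 8.32% (chromosome 8) to 13.3% (chromosome 6) of the bins at or above 70% in S/L p20. The median distance to the next member was 516.5 kb, and 15 pairs lay in adjoining bins, with no longer run. One such pair, at chr4:154346621-154346799 (8 CpGs) and chr4:154347348-154347406 (4 CpGs), read 57.2, 38.8 and 21.9% and 42.1, 26.7 and 18.8% in 2i/L p20 (J-34, J-35 and J-37). Among bins within 10 kb of a member that were also at or above 70% in S/L p20, 11.2% were members, 69.3% lost early and 19.5% retained. The corresponding shares were 8.89, 76.7 and 14.4% around all bins and 8.48, 77.6 and 13.9% around lost-early bins. Around retained bins they were 11, 64.2 and 24.7%, so members were about as frequent there as around other members. Within a late-loss bin the CpGs of 2i/L p20 had a median SD of 10.7 points, against 9.70 in lost-early and 12.1 in retained bins. No annotation of the files' build was used, so bins are given by position without genes.

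With the Mek1/2 inhibitor PD alone, for 6 passages, the late-loss bins stood near their 2i/L p10 level, and with the Gsk3 inhibitor CHIR alone near their S/L p10 level. PD, CHIR and S/L p10 took no part in the choice, whereas the 2i/L p10 level is a selected value. The S/L p10 libraries averaged 90.1% ± 0.266 (SD, n = 3), PD 52.6% and CHIR 90.3%. A fall of at least 20 points below the lowest S/L p10 library was seen in 1866 of 2107 members in PD (88.6%). The share was 97.2% in lost-early and 69.4% in retained bins. It was 49.6% of all bins, of which 33.1% were at or above 70% in S/L p20. In CHIR such a fall was seen in 10 of 2064 members (0.484%), against 1.21% of all bins. Of the 143936 PD reads in members, 52.8% were methylated (Wilson 95% interval 52.5 to 53%, with reads at each CpG taken as independent). PD and CHIR had 1 library each, so these counts have no replicate check.

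The Mek1/2 double knockout was lower still. Its mean level was 33.5%, beside the 34% ± 12.6 (SD, n = 3) of the 2i/L p20 group that chose the bins. In MEK DKO 2077 of 2095 members (99.1%) lay at least 20 points below the lowest S/L p10 library, against 53.1% of all bins. The share was 99.7% in lost-early and 95.5% in retained bins, so it was not particular to the late-loss bins. Of 2127 members read in both libraries, 1993 (93.7%) were lower in MEK DKO than in PD. MEK DKO was under 40% in 1537 of them and PD in 227. In 890 (41.8%) PD was at or over 50% while MEK DKO was under 40%. That share was not computed for all bins or the other classes. The member means of 52.6% in PD and 33.5% in MEK DKO already lie on those sides of the limits, so the count is a description only. The classes kept their order in both: PD read 38.5% in lost-early and 61.8% in retained bins, and MEK DKO 23.9 and 43.2%. MEK DKO cells are a reprogrammed clone of another origin, and their Mek1/2 genotype cannot be told apart from clone, passage or feeder culture here.

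**Figure D3:**
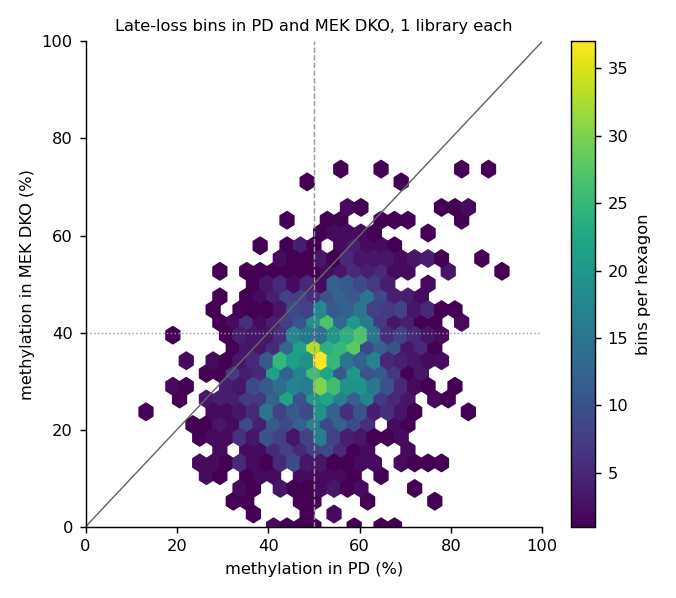
Methylation of late-loss bins in PD (x axis, percent) and MEK DKO (y axis, percent), 1 library each; colour gives the bins per hexagon, the diagonal marks equal levels, and dashed and dotted lines mark 50 and 40%. Most bins (1993 of 2127) lie below the diagonal.

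Single members departed from this in both directions, within wide counting error. The lowest of the deeply read members in PD was chr2:181094207-181094383 (5 CpGs), at 18.2% (Wilson 95% interval 7.31 to 38.5%, 22 reads), while its S/L p10 libraries read 87.0, 94.4 and 87.0%. The better covered chr5:144658392-144658599 (6 CpGs) read 24.8% in PD and 20.9% in MEK DKO, beside 59.8, 44.3 and 50% in 2i/L p10. The highest in MEK DKO was chr15:34465106-34465232 (3 CpGs), at 66.7% (50.3 to 79.8%, 36 reads), where 2i/L p20 read 55.2, 31.0 and 14.8%. Such intervals count reads only and are likely too narrow. A read that spans several CpGs counts at each, and amplified reads without molecular identifiers are not independent molecules.

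The a2i/L and PKCi/L media left the late-loss bins methylated. The mean was 86.7% in a2i/L p10 and 91.7% in PKCi/L p10, and 92.4 to 92.7% and 91.6 to 92.9% in the p20 libraries. At p10, 10 of 2106 members (0.475%) were at least 20 points below the lowest S/L p10 library in a2i/L and 3 of 2092 (0.143%) in PKCi/L. The same was true of 6.81 and 1.49% of all bins. In a2i/L p10 the lost-early bins stood lower, at 76.6%, and 6.25% of them passed that gap. Between the 2 media at p20, limma with Benjamini-Hochberg adjustment called no member lower or higher in PKCi/L, against 0.0654 and 0.0817% of all bins. The quasi-binomial model also called 0 each way, and 101 and 64 of 2051 members had an unadjusted p under 0.05. Members at 92.4 to 92.7% in a2i/L p20 had almost no room for the rise of 20 points that a higher call needed. The quartiles of the members' differences (PKCi/L minus a2i/L) were -3.20 and 2.54 points.

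Back in serum, the late-loss bins stood near their S/L level after 3 passages, a few points below S/L p10. The mean level was 84.6, 83.4 and 80.9% in p23 of J-34, J-35 and J-37, against 89.8, 90.3 and 90% in S/L p10, and the groups did not overlap. A difference of p23 below S/L p10 was seen in 1745 of 2051 members tested (85.1%), with a median of -5.37 points. Over all 61180 bins tested 57.7% were lower and the median was -0.32 points. The median was -5.38 points in lost-early and -3.29 points in retained bins. At an adjusted p under 0.05 (limma, Benjamini-Hochberg over all bins) and a difference of 20 points or more, 80 members (3.90%) were called lower, against 0.729% of all bins. Lower calls were made for 1.61% of lost-early and 1.28% of retained bins, without a test of the difference between classes. No member was called higher, against 0.0539% of all bins. The quasi-binomial model also called 0 higher, and 6 members had an unadjusted p under 0.05 in that direction. A higher call needed a rise of 20 points, for which members at 89.8 to 90.3% in S/L p10 had almost no room. The absence of higher calls therefore says little.

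The count of 80 depended on each library. It was 12 without p23 J-37, 21 without p23 J-35 and 49 without p23 J-34, and 37 to 44 without 1 of the S/L p10 libraries (J-35 and J-34 gave the ends). With at least 20 reads per bin in every library, 41 of 1458 members were called. S/L p10 and p23 also belong to different coverage sets, and a difference between the sets cannot be told apart from the return to serum. S/L p20, of the same set as p23, stood at 86.7% ± 0.558 (SD, n = 3), but it took part in choosing the bins. Restricted to CpGs covered in all 21 libraries of the fit, 42 of 1170 members were called lower.

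Among the late-loss bins, those lowest in 2i/L p20, a selected value, were the furthest below S/L p10 at p23. Members at 10 to 20% in 2i/L p20 (25 bins) stood 18.5 points below S/L p10 at p23, members at 20 to 30% (348 bins) 10.6 points, and members at 30 to 40% (1678 bins) 6.09 points. The lines followed the same order: the mean gap was 5.19 points in J-34, 6.95 in J-35 and 9.08 in J-37. In these lines it was 4.896, 6.378 and 7.625 points in lost-early and 2.827, 3.901 and 5.417 points in retained bins. The order of the lines was therefore not particular to the late-loss bins. The mean difference of p23 from S/L p10 was -7.01 points in late-loss, -6.30 in lost-early and -3.965 in retained bins. Across classes the gap did not follow the 2i/L p20 level, since the lost-early bins were lower there than late-loss bins (28.05 against 34%). These gaps are descriptions across bins of the same libraries.

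**Figure D4:**
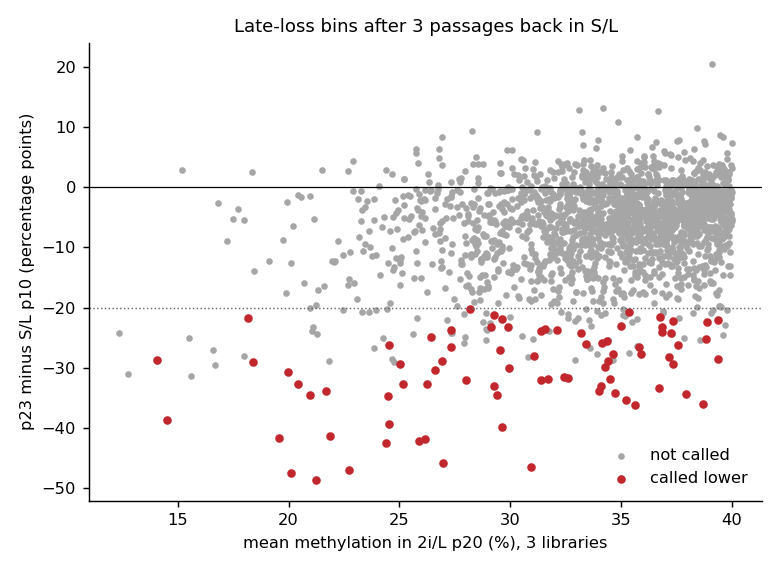
Difference between p23 and S/L p10 in percentage points (y axis, means of 3 libraries each) against the mean 2i/L p20 level in percent (x axis) for 2051 late-loss bins; red points are the 80 bins called lower, and the dotted line marks 20 points below S/L p10. Points spread downwards throughout and lie lowest on average at the left.

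The largest called fall among the deeply read members was at chr2:88647107-88647228 (4 CpGs in the bin). Its level was 96.2, 95 and 96% in S/L p10 and 43.6, 56.8 and 47.3% in p23, for J-34, J-35 and J-37. The difference was -46.5 points, with a limma adjusted p of 0.00165 after Benjamini-Hochberg adjustment. Each p23 library lay below the 2i/L p10 library of its line, at 70.5, 62.5 and 50%. At p30 it read 97.9 and 84.8%. In S/L p20, of the same coverage set as p23, it stood at 83.6, 83.7 and 84.6%, already below S/L p10. The next, chr2:98950078-98950190 (3 CpGs), went from 96.9, 100 and 96.2% in S/L p10 to 60, 59.7 and 47.7% in p23, a difference of -41.9 points (limma, Benjamini-Hochberg adjusted p = 0.00253), and read 92.3 and 84.1% at p30. In S/L p20 this second stretch also stood below S/L p10, at 75.6, 86 and 79.1%. At chr6:131737560-131737604 (3 CpGs) p23 read 37.3, 49.4 and 44.3%, and p30 90.2 and 87.2%. The first 2 stretches passed the same test with any 1 library left out. The third did not without p23 J-34, J-35 or J-37 or without S/L p10 J-37 (limma, Benjamini-Hochberg adjusted p of 0.0569 to 0.0871). In all 3 stretches, which were named for their low p23 levels, the p30 libraries lay above every p23 library.

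By p30 the mean of the late-loss bins was higher than at p23. It was 88.9% in J-35 and 88.0% in J-37. Compared with p23, 26 members (1.27%) were called higher by limma with Benjamini-Hochberg adjustment, against 0.384% of all bins, and 3 were called lower, against 0.0311%. Leaving out 1 p23 library gave 10 (J-34), 4 (J-35) and 6 (J-37) higher calls, each of them among the 26. The count was 1 without p30 J-35, which was among the 26, and 12 without p30 J-37, of which 7 were. It was 2, with 1 of the 26, with the cell line as a replicate block, for which the p30 library titled J-35 was left out. It was 0 when the 5 libraries were fitted alone. The count of 3 called lower was 1 with the block. The 2 groups come from different coverage sets, so the set and the passage number cannot be told apart.

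Within their own coverage set, the p30 cells were a few points below the a2i/L p20 and PKCi/L p20 cells. The mean was 88.5% ± 0.636 (SD, n = 2) at p30, 92.6% ± 0.246 (SD, n = 2) in a2i/L p20 and 92.2% ± 0.938 (SD, n = 2) in PKCi/L p20. The p30 level was below a2i/L p20 in 77.1% of members (median difference -3.73 points, all bins 55.4% and -0.23 points). It was below PKCi/L p20 in 75.7% (median -3.58 points, all bins 56.8% and -0.28 points). In lost-early and retained bins the medians were -3.62 and -3.16 points against a2i/L p20, and -3.98 and -2.78 points against PKCi/L p20. A shift of this size was therefore not particular to the late-loss bins. These 2 comparisons share the p30 libraries. The medium, the passage number and the cell lines (J-35 and J-37 against J-34 and J-35) differ along with the past in 2i/L, and these cannot be told apart. S/L p20, of the other coverage set and used in the choice, was lower than p30, at 86.7%. Few single bins passed the test: limma with Benjamini-Hochberg adjustment called 10 members lower than in a2i/L p20 (background 0.211%) and 4 lower than in PKCi/L p20 (background 0.0883%). None was called higher, against 0.458 and 0.114% of all bins. The quasi-binomial model also called 0 higher, and 16 and 17 members had an unadjusted p under 0.05 in that direction. A higher call needed a rise of 20 points, and members at 92.6 and 92.2% in these media had almost no room for it. The absence of higher calls was thus nearly fixed in advance and says little about the members. Against a2i/L p20 the count was 1 with the replicate block, which was among the 10. It was 6 without a2i/L p20 J-34 and 8 without a2i/L p20 J-35, each with 4 of the 10. It was 3 without p30 J-35, with 1 of the 10, and 2 without p30 J-37, with 0 of the 10. Against PKCi/L p20 the count was 0 with the block and 0 without p30 J-37. It was 1 without PKCi/L p20 J-34, with 0 of the 4, 2 without PKCi/L p20 J-35, both among the 4, and 1 without p30 J-35, also among the 4.

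One stretch was low at p30 against both media. At chr9:17813629-17813677 (5 CpGs in 49 bp) p30 read 61.5% in J-35 and 24.2% in J-37, whereas a2i/L p20 read 92.9 and 96.7% and PKCi/L p20 95.5 and 87.9% (J-34 and J-35). The difference from a2i/L p20 was -51.9 points, with a limma adjusted p of 0.00172 (Benjamini-Hochberg). The call rests on p30 J-37: without it the difference was -33.2 points, with a limma adjusted p of 0.0904 (Benjamini-Hochberg). Against PKCi/L p20 the stretch was not called without p30 J-37 or without PKCi/L p20 J-34 (limma, Benjamini-Hochberg adjusted p of 0.285 and 0.131). At p23 the same CpGs had read 82.3, 81.6 and 64.8%, higher than at p30, and in 2i/L p20 25.7, 45.8 and 28.9%. J-37 was the lower line at both times after the return. At chr13:64271426-64271515 (3 CpGs) p23 read 60.6, 50 and 48.6% and p30 61.1 and 56.8%, against 92.1 and 94.7% in a2i/L p20, and the p23 and p30 libraries overlapped. This stretch was not called below a2i/L p20 when any 1 of the 4 libraries was left out (limma, Benjamini-Hochberg adjusted p of 0.104 to 0.182).

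**Figure D5:**
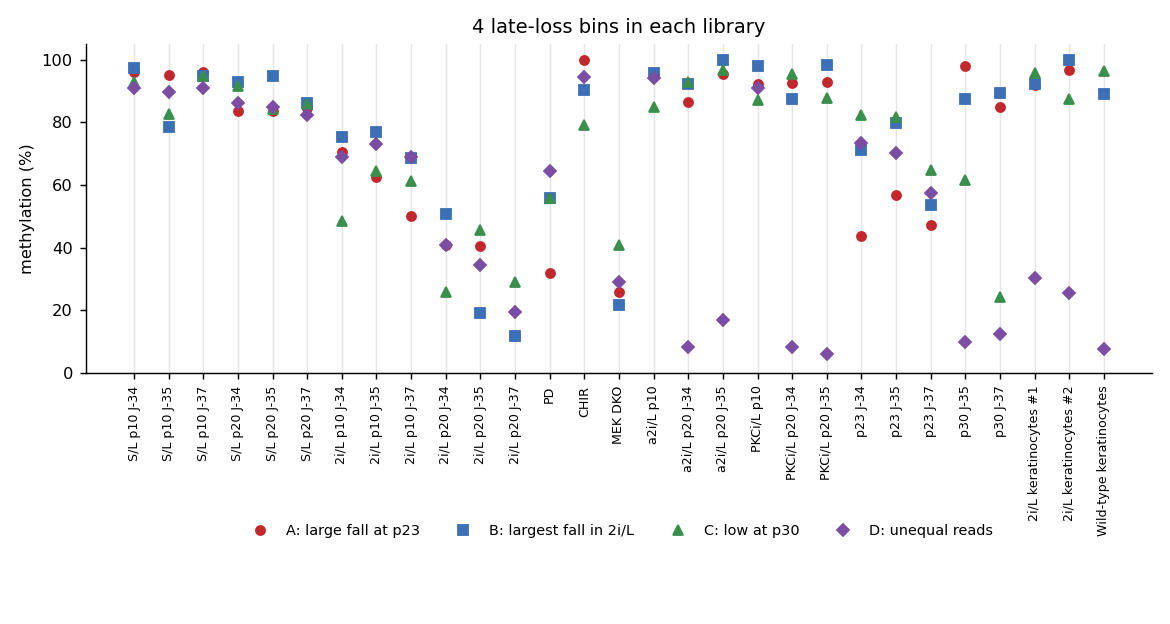
Methylation in percent (y axis) of 4 late-loss bins in each library with 10 or more reads (x axis): A is chr2:88647107-88647228, B chr6:89721932-89721957, C chr9:17813629-17813677 and D chr10:11211843-11211973. A, B and C lie high in a2i/L, PKCi/L and keratinocytes, C is lower at p30 (61.5 and 24.2%), and D is low in 9 libraries with many more reads there.

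Of the 3 members called lower at p30 than at p23, 2 had grossly unequal read numbers, which were looked for after the levels had been seen. At chr10:11211843-11211973 (11 CpGs) the a2i/L p20, PKCi/L p20 and p30 libraries had 3575 to 7161 reads and levels of 6.16 to 17.0%, and the 3 keratinocyte libraries 1532 to 3889 reads and 7.51 to 30.4%. The other 20 libraries had 77 to 208 reads and 19.4 to 94.5%. At chr3:61963051-61963346 (3 CpGs) the first 6 libraries had 566 to 1933 reads at 2.64 to 6.54%, the keratinocytes 312 to 729 reads at 6.86 to 9.63%, and the other 20 had 14 to 56 reads. Only 3 of all 62466 bins had a mean read number over 5 times as high in those 6 libraries as in the other 20, and 2 of them were members. The next highest ratio among members was 2.48. The part of the read numbers in the differences was not tested. Without these 2 bins, 1 member was called lower at p30 than at p23.

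In keratinocytes the late-loss bins were methylated, whether the label said 2i/L or wild-type. The mean was 85.8 and 85.7% in the 2i/L libraries and 85.6% in the wild-type one. Both 2i/L libraries lay at least 20 points below the wild-type one in 21 of 1941 members (1.08%) and at least 20 points above it in 36 (1.85%). Over all bins these shares were 1.26 and 1.41%, so the late-loss bins did not stand apart from the table. Compared with S/L p10, the wild-type keratinocytes were at least 20 points lower in 194 of 1999 members (9.70%), against 7.53% of all bins. The share was 14.9% in lost-early and 7.17% in retained bins. The single wild-type library had the fewest reads of all 29, and sex label and culture differ between the 2 kinds of keratinocyte, which cannot be told apart.

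A few stretches differed between the keratinocyte libraries. At chr1:58364203-58364266 (5 CpGs) the 2i/L libraries read 5.56% (Wilson 95% interval 2.18 to 13.4%, 72 reads) and 2.86% (0.506 to 14.5%, 35 reads), and the wild-type one 39.0% (25.7 to 54.3%, 41 reads). The p23 ESCs read 94.6, 85.5 and 82.9% there and p30 88.9 and 91.7%. At chr4:106635401-106635496 (3 CpGs) the 2i/L keratinocytes read 60.6% (43.7 to 75.3%, 33 reads) and 62.5% (38.6 to 81.5%, 16 reads), and the wild-type one 96.6% (82.8 to 99.4%, 29 reads). In the other direction, chr5:38893198-38893338 (3 CpGs) read 81.6% (66.6 to 90.8%, 38 reads) and 91.7% (64.6 to 98.5%, 12 reads) against 36.8% (19.1 to 59.0%, 19 reads). The interval of the wild-type library met that of neither 2i/L library in these 3 stretches. They were picked for the size of this difference, so the separation adds no support. At chr8:106506727-106506930, named by the same rule, the wild-type interval (39.4 to 66.3%) met that of the first 2i/L library (63.7 to 90.8%). It met neither at chr19:4734242-4734754 and chr15:29932734-29932854, the other stretches named this way.

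The 94 members that met both 2i/L limits in every line followed the same course. Their mean was 59.2% in 2i/L p10 and 27.2% in 2i/L p20, both selected. In the libraries not used to choose them, they stood at 51.9% in PD, 30.5% in MEK DKO, 86.2% in a2i/L p10, 78.8% in p23, 87.6% in p30 and 89.8% in S/L p10. Their p23 level lay below the 83.0% of all 2143 members, and the PD, MEK DKO, a2i/L p10, p30 and S/L p10 levels lay within 3 points of those of all members.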

How the data were processed

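For every library the authors deposited a list of CpGs. BSMAP 2.89 and build mm9 come from the submitters' processing notes; how reads were trimmed or filtered is not given in the sources used here. A CpG's line in the deposited lists has a text field of methylated over all reads and a score, which equalled 1000 times their ratio, rounded down, at every CpG checked. Libraries were bisulfite-converted and amplified in pools of 12 barcoded reactions, per the labels' protocols.

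Autosomal CpGs with 5 or more reads in each of the 9 libraries (673913) were grouped in 1 kb bins with 3 or more CpGs, and their reads summed. Outside those libraries a bin needed 10 reads. 2051 members had these in all 21 libraries of the 8 replicated ESC groups, which were fitted together with limma 3.58.1 (R 4.3.3) on log2((methylated + 1)/(unmethylated + 1)), group as the factor, two-sided, Benjamini-Hochberg over 61180 bins. Calls needed an adjusted p under 0.05 and at least 20 points. The text field was split into methylated and all reads, and these were summed per bin. edgeR's test for bisulfite counts was not run, and limma was its planned substitute. A quasi-binomial logistic model on the same reads was the alternative. The script was tested on simulated data with known falls. The spread between libraries and the pass criteria of this simulation were relaxed after a first one with a larger spread recovered few of the smaller falls, and most of the smallest falls were still missed. A low count of calls therefore does not show that few bins differed. Cell lines pair the libraries, per the labels; the deviations of p23 and S/L p10 libraries of 1 line correlated at -0.011, 0.0174 and 0.00839 over bins. Replicates are libraries of separate lines, and nothing says that cultures were repeated within a line.

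Named regions are members with 30 or more reads in the 9 libraries: the largest 2i/L falls, the largest called differences, the extremes of PD, MEK DKO and keratinocytes, adjoining members, and bins nearest each limit (for these, any depth). The members, lists and limits were chosen with earlier results of these data known. Gene lists and cell type markers were not used, for lack of an mm9 annotation here, so the labelled cell types were not checked against markers. Python 3.11.15, numpy 2.4.6, pandas 2.3.3, scipy 1.17.1 and matplotlib 3.10.9 made the tables and figures.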

Additional observations from a re-analysis of the deposited data

How the results depend on the processing

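Of 151 alternatives to 17 results, 102 stayed within 1.5 times the reported count and 49 moved further. The number of members (2143) was 290 with 10 reads per CpG, 3504 with 3 reads, and 381 with 5 CpGs per bin; leaving out 1 library gave 1003 to 3617. With 20 reads per bin, members past the gap were 4 in CHIR, 5 in a2i/L p10, 1 in PKCi/L p10 and 9 lower in both 2i/L keratinocyte libraries; with the mean of CpG levels, PKCi/L p10 had 6.

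Members called lower at p23 than at S/L p10 were 42 with the quasi-binomial model, 41 with 20 reads, 42 with CpGs covered in all 21 libraries, and 12 to 49 with 1 library left out; members called higher were 0 to 1. Members called lower at p30 than at p23 were 1 with the 2 groups alone and 1 without the 2 bins of unequal reads, an alternative chosen after seeing the data. Members called higher were 5 with the quasi-binomial model, 12 with 20 reads, 8 with commonly covered CpGs, 0 with the 2 groups alone and 1 to 12 with 1 library left out. Against a2i/L p20, lower calls at p30 were 6 with limma on percent, 3 with the quasi-binomial model, 6 with 20 reads, 0 with the 2 groups alone and 2 to 8 by leaving out a library. Against PKCi/L p20 they were 1 with the quasi-binomial model, 0 with commonly covered CpGs, 0 with the 2 groups alone and 0 to 2 by leaving out a library. With the cell line as a replicate block, and without the p30 library of conflicting labels, they were 85 (p23 lower than S/L p10), 1 and 2 (p30 lower and higher than p23), 1 (a2i/L p20) and 0 (PKCi/L p20); the block changed no other call count. The causes were not tested. Leaving out a library of a pair assumes that the lone one varies like the other groups. Depth limits single bins: at 48 reads, taken as independent, the binomial error of a library is 7.22 points.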
